A study of Mus musculus with 23 samples.

Results

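The proteasome genes were taken as every row of the count table whose symbol starts with Psma, Psmb, Psmc, Psmd or Psme and a digit, which gave 45 of 22488 symbols. Their RNA was measured in 23 mouse libraries made with EASY-RNAseq, a protocol for small inputs that copies RNA from its poly(A) tail and fragments the cDNA with the transposase Tn5. T cell libraries came from 100, 500, 1000 and 10000 CD3+ spleen T cells, with 3 libraries at each number. Diluted RNA libraries came from 0.1 ng of RNA, with 2 libraries, and from 0.5, 1 and 5 ng, with 3 libraries each. Per the labels the strain was C57 and the age 6-18week, and no group carried a mutation or received a treatment. The study asks how little material the protocol can use, and the labels do not say whether replicates were separate animals or repeats of 1 preparation, so p-values may measure technical spread alone.

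The 26S proteasome is the barrel-shaped protease that breaks down proteins tagged with ubiquitin. Its 20S core is built of alpha rings, which gate the entrance, and beta rings, which hold the catalytic sites, while the 19S cap recognises ubiquitin, unfolds the substrate with a ring of ATPases and feeds it into the core. In spleen lymphocytes the constitutive catalytic subunits are largely exchanged for immunoproteasome subunits, and the PA28 activator can replace the cap, both known for making peptides for MHC class I.

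By role, the 45 genes were 7 alpha ring genes (Psma1 to Psma7), 4 non-catalytic beta genes (Psmb1 to Psmb4), 3 constitutive catalytic genes (Psmb5, Psmb6 and Psmb7), 3 immunoproteasome genes (Psmb8, Psmb9 and Psmb10), 6 ATPases of the 19S cap (Psmc1 to Psmc6), 11 other cap subunits, 3 chaperones of cap assembly (Psmd5, Psmd9 and Psmd10) and 4 activators (Psme1 to Psme4). The alpha subunit of testis (Psma8) and the catalytic subunit of thymus (Psmb11) were 1 gene each. The other 2 matched by symbol only. Psmc3ip encodes a recombination factor named for binding Psmc3, and Psme2b is a near copy of Psme2 (99.37% identity over 794 bases), so that counts of Psme2 and Psme2b can be exchanged and both are uncertain. In all, 13 genes had a stretch of at least 300 bases matched at 95% or more by another transcript. Their counts are uncertain, and the match was mostly to a pseudogene. They include Psma3, Psma4, Psma5, Psmb3, Psmb5, Psmc1, Psmd2 and Psmd11. For Psmc3ip, Psmd1 and Psmd13 the match was to a gene whose exons overlap theirs (Mlx, Gm21972 and Sirt3), so the bases are shared and not a copy.

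Promoter sequences are printed for 6 genes that carry the comparisons below. Psme3 and Psme4 were lower in T cells at 3 input ranks, Psme1 and Psme2 were not called between the materials, and Psmb5 and Psmb8 occupy the same catalytic position in the constitutive and the immunoproteasome. Each line holds the 250 bases before the start of the gene, 5′ to 3′ on the gene's strand, from RefSeq on GRCm38.p6. Capitals mark matches on either strand to TGACNNNGC (antioxidant response element core), TTCNNNGAA (gamma-activated site core), CCAAT (the box of that name) or GGGCGG (GC box). The core of the interferon-stimulated response element was searched too and stood in none of the 6.
Psme3, chr11:101315963-101316212, plus strand: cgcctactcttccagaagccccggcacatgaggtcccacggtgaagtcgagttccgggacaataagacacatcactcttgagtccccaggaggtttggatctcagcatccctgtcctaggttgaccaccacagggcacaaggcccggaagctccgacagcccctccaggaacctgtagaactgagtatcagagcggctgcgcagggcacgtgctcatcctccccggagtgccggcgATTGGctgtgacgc
Psme4, chr11:30771525-30771774, plus strand: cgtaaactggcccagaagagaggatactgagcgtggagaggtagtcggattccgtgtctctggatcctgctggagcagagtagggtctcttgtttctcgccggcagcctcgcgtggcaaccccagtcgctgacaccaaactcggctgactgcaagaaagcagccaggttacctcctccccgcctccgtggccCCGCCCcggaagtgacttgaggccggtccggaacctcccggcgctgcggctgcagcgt
Psme1, chr14:55578244-55578493, plus strand: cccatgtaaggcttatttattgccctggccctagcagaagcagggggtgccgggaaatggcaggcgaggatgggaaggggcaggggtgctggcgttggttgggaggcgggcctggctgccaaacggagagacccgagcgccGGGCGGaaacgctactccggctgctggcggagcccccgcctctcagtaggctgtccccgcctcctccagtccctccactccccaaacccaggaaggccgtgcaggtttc
Psme2, chr14:55591102-55591351, minus strand: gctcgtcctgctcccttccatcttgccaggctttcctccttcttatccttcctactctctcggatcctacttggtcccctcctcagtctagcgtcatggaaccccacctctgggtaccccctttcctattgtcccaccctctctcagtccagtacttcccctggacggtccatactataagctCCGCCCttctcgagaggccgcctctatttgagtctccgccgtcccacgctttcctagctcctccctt
Psmb5, chr14:54617996-54618245, minus strand: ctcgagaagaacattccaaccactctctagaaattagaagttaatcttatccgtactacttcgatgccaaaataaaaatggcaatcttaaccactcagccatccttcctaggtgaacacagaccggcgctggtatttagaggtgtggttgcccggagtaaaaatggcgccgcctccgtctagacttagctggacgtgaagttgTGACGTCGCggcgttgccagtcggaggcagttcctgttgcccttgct
Psmb8, chr17:34197945-34198194, plus strand: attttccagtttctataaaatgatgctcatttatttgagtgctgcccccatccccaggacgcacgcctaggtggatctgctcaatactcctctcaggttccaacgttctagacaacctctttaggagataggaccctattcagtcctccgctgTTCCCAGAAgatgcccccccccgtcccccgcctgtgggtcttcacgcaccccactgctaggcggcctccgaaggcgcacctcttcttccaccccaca

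Psme3 held a CCAAT box read on the opposite strand, Psme4, Psme1 and Psme2 each a GC box, Psmb5 the antioxidant response element core and Psmb8 the gamma-activated site core. For Psme2 the upstream of 2 annotated starts is shown. Of the 45 genes, 38 had an entry, with 41 promoters. A GC box stood in 53.66% of these promoters and in 32.74% of all 32851 promoters in the table. A CCAAT box stood in 36.59% and 33.85%, the antioxidant response element core in 12.2% and 10.16%, the interferon-stimulated response element core in 7.32% and 2.98% and the gamma-activated site core in 2.44% and 7.02%. These matches describe letters in a window and say nothing of binding.

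Totals ran from 1849181 to 3760980 counts in T cell libraries and from 1737067 to 7908638 in diluted RNA libraries. The 11 T cell markers summed to 3230 to 6085 CPM (counts scaled to a common library total) in T cells and to 1218 to 1535 CPM in diluted RNA. The sample labels of the diluted RNA name the macrophage line raw 264.7 and the design text names spleen; its libraries held 27350 to 38471 CPM over 9 B cell markers, 2225 to 2601 CPM over 8 macrophage markers, 3233 to 4762 CPM over 7 neutrophil markers and 2536 to 4431 CPM over 6 erythroid markers, which goes against a single macrophage line, so it is called diluted RNA here. Replicate 3 of the 100-cell group stood apart from the other T cell libraries, with 14791 CPM over the B cell markers against 974 and 1091 CPM in replicates 1 and 2, 1863 CPM over the neutrophil markers against 17.7 and 30.3 CPM, and 184 CPM over 4 Y-linked genes against 0 and 4.33 CPM. In diluted RNA the Y-linked genes summed to 287 to 456 CPM. They summed to 0 to 2.7 CPM at 500 cells, 0 to 0.846 CPM at 1000 and 0 to 2.51 CPM at 10000. The materials thus differed in Y-linked RNA at every rank. The 500-cell libraries held 2734 to 2949 CPM over 6 plasma cell markers, against 85.6 to 90.8 CPM at 10000 cells.

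Proteasome genes were well expressed in both materials, and 42 of the 45 averaged at least 10 CPM in every group. Together they took 0.345% ± 0.0048 of the counts at 100 cells, 0.368% ± 0.0057 at 500, 0.376% ± 0.0035 at 1000 and 0.371% ± 0.0072 at 10000 (SD, n = 3 each). In diluted RNA they took 0.356% ± 0.0311 at 0.1 ng (n = 2), 0.394% ± 0.001 at 0.5 ng, 0.409% ± 0.0061 at 1 ng and 0.417% ± 0.0081 at 5 ng (n = 3 each). At the largest input the share was therefore lower in each of the 3 T cell libraries (0.363% to 0.377%) than in each of the 3 libraries of 5 ng RNA (0.41% to 0.426%).

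Levels of different genes were compared per kilobase of exon, as CPM per kb. In 10000 T cells the highest mean levels were 101 CPM per kb for Psme1 and, behind the near copy Psme2b at 99.4, 75.0 CPM per kb for Psme2, the subunits of PA28. Psma6, an alpha ring gene, followed at 63.7 CPM per kb, then the immunoproteasome genes Psmb8 at 59.1 and Psmb10 at 56.7 CPM per kb. In 5 ng RNA the order began with Psme1 at 94.8, Psma6 at 83.6 and Psme2 at 67.6 CPM per kb, with Psme2b above them at 96.8 CPM per kb. The place of Psme2b above Psme2 rests on the divisor, 837 bases against 1764, and in CPM their order was reversed. In 10000 T cells Psme2 had 130 to 137 CPM and Psme2b 75.8 to 92.6 CPM. Psmb7, the constitutive subunit with trypsin-like activity, was the lowest of the core subunits other than Psma8 and Psmb11, at 5.9 CPM per kb in 10000 T cells and 9.66 CPM per kb in 5 ng RNA. The cap chaperones Psmd5 (6.5 against 8.58 CPM per kb) and Psmd9 (3.52 against 2.29 CPM per kb) were also near the bottom. Other places in the order rest on the divisor too. In 10000 T cells Psma6, with 1234 bases, had 75.0 to 84.2 CPM, against 104 to 113 CPM for Psma2, with 3673 bases. Psmd5, with 7230 bases, had 41.2 to 51.8 CPM there, against 31.0 to 40.0 CPM for Psmb5, with 899 bases.

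**Figure D1:**
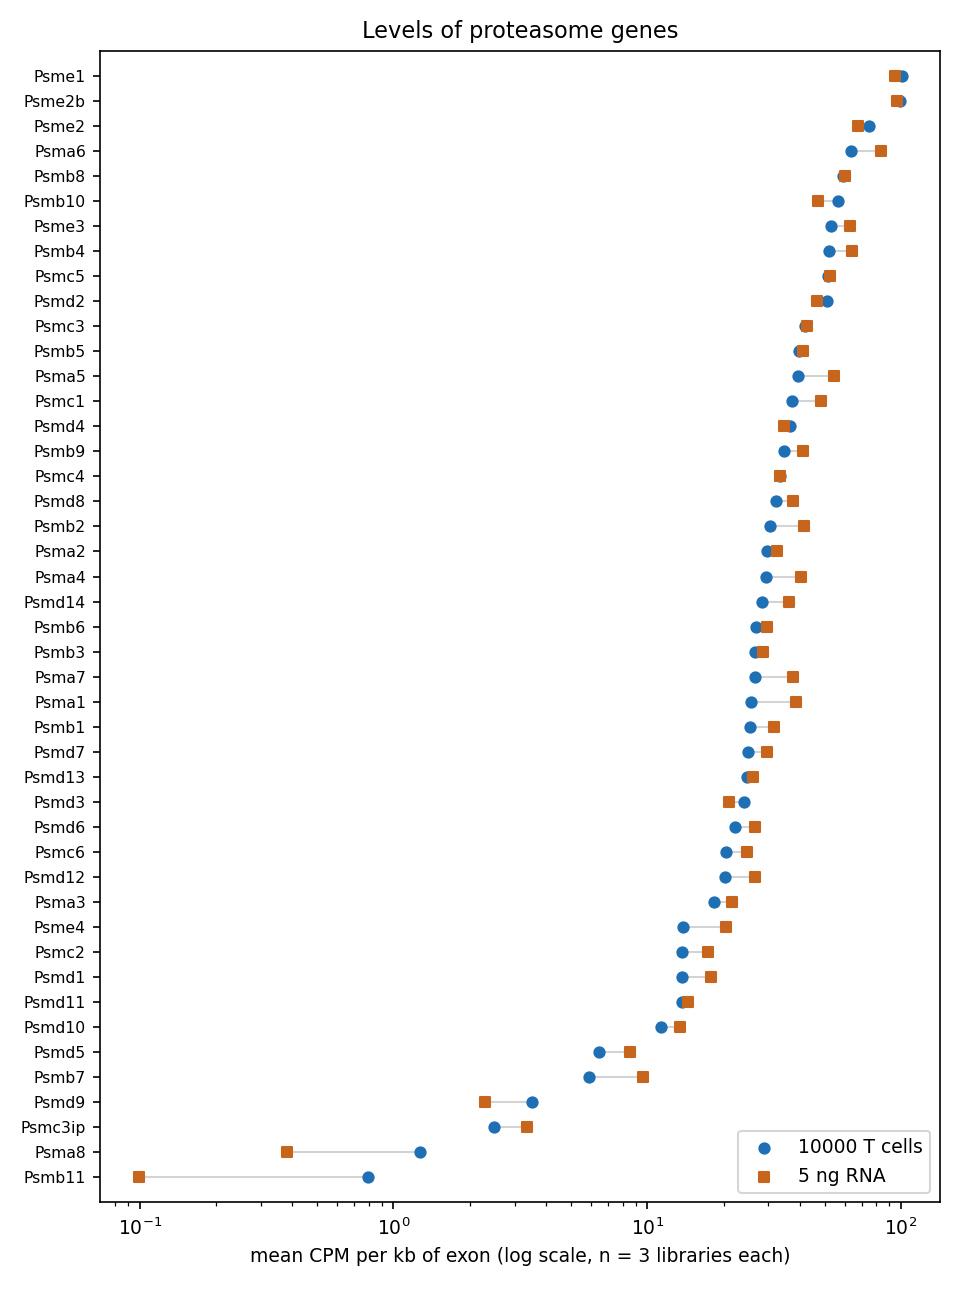
Mean level of each proteasome gene in CPM per kb of exon (horizontal log axis) in 10000 T cells (circles) and 5 ng RNA (squares), 3 libraries each, ordered by the T cell level. Psme1 leads in T cells at 101 CPM per kb, and Psmb11 and Psma8 are last in both materials.

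The tissue-restricted genes were low in all libraries. The counting floor of 3 counts per library equals 0.379 to 1.73 CPM depending on depth. Psmb11 ranged from 0 to 9.0 CPM in T cell libraries and from 0 to 6.9 CPM in diluted RNA, the latter in 1 library of 0.1 ng with 12 counts. At the upper 3 ranks every T cell library was above every RNA library, at 1.8 to 9.0 CPM against 0 to 1.2 CPM. Psmb11 was not tested there. Psma8 ranged from 0 to 4.8 CPM in T cell libraries and from 0 to 6.6 CPM in diluted RNA, the latter in 1 library of 0.1 ng with 13 counts. Neither passed the filter on low counts in most comparisons.

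The first comparison set T cells against diluted RNA, pairing inputs by rank since cell numbers and nanograms are different scales. At the largest input, 10000 T cells against 5 ng RNA, 44 of the 45 genes passed the filter. Of these, 24 were lower in T cells and 2 were higher (edgeR quasi-likelihood test, adjusted p under 0.05 over 14425 genes). Among all genes tested, 27.3% were lower, 28.7% higher and 56% changed in either direction. The count changed in either direction lay near that background, and the count that was lower lay above it. The median log2 fold change (T cells over RNA) was -0.36 over the 44 genes and 0.03 over all genes. Scaled by library totals alone, which moves the median of all genes to 0.15, 19 genes were lower and 4 higher. The shares of all genes given above belong to the main fit, so these counts have no background beside them. Of the 44 genes, all T cell libraries lay below all RNA libraries for 21 (47.7%) and above them for 5 (11.4%), against 25.1% and 36.3% of all genes tested. In bulk RNA, fewer cells of a type and less RNA per cell cannot be told apart. The B cell, neutrophil and erythroid markers and the Y-linked genes given above moved with the comparison. The part of these differences in it was not tested.

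All 7 alpha ring genes were lower in 10000 T cells, with log2 fold changes of -0.25 to -0.70, though Psma2 and Psma3 stayed below 0 without passing when libraries were scaled by totals alone. Psma1 showed the largest difference of the ring. It had 73.6, 79.7 and 74.4 CPM in 10000 T cells, against 128.5, 109 and 105 CPM in 5 ng RNA. Every T cell library lay below every RNA library, and the log2 fold change was -0.70 (SE 0.0985, adjusted p = 1.3e-08, edgeR). Psma7 had 65.8, 79.9 and 98.2 CPM in 10000 T cells, against 128.5, 113 and 103 CPM in 5 ng RNA. Here too the groups did not overlap, although the T cell libraries were spread out (log2 fold change -0.61, SE 0.104, adjusted p = 1.1e-06, edgeR). Psma2 had 109, 104 and 113 CPM in 10000 T cells, against 124, 116 and 119 CPM in 5 ng RNA, and was the least changed of the ring at -0.25 (SE 0.0864, adjusted p = 0.013, edgeR). Summed over the ring, 10000 T cells held 537 ± 20.8 CPM and 5 ng RNA 704 ± 48.8 CPM (SD, n = 3 each). The ring's sum was lower in every T cell library.

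The same sums differed less for the other parts of the complex. The 4 non-catalytic beta genes summed to 316 ± 16.7 CPM in 10000 T cells and 386 ± 2.63 CPM in 5 ng RNA, and 3 of them (Psmb1, Psmb2 and Psmb4) were lower. The 6 cap ATPases summed to 466 ± 18.5 CPM in 10000 T cells and 523 ± 13.2 CPM in 5 ng RNA, and Psmc1 (-0.49), Psmc2 (-0.44) and Psmc6 (-0.38) were lower while Psmc3, Psmc4 and Psmc5 were between -0.10 and -0.14 and not called. The 11 other cap subunits summed to 1050 ± 31.3 CPM in 10000 T cells and 1129 ± 33.6 CPM in 5 ng RNA (SD, n = 3 each). Of these, 6 were lower, from Psmd8 at -0.32 to Psmd12 at -0.51. They include Psmd14, the deubiquitinase of the cap (-0.46, SE 0.104, adjusted p = 1.6e-04, edgeR), and Psmd1, its large scaffold subunit (-0.49, SE 0.09, adjusted p = 4.4e-06, edgeR). Psmd2, the other large scaffold subunit, was not called at 0.02 (95% interval -0.12 to 0.16), nor was the ubiquitin receptor Psmd4 at -0.03 (95% interval -0.23 to 0.16). These intervals exclude a change as large as that of Psmd1, and the groups overlapped for both genes. Psmd6, Psmd7 and Psmd8 were among the 6 but not called when libraries were scaled by totals alone, nor was Psmd6 without 10000-cell replicate 1 (-0.27) or Psmd7 without 5 ng replicate 1 (-0.32).

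**Figure D2:**
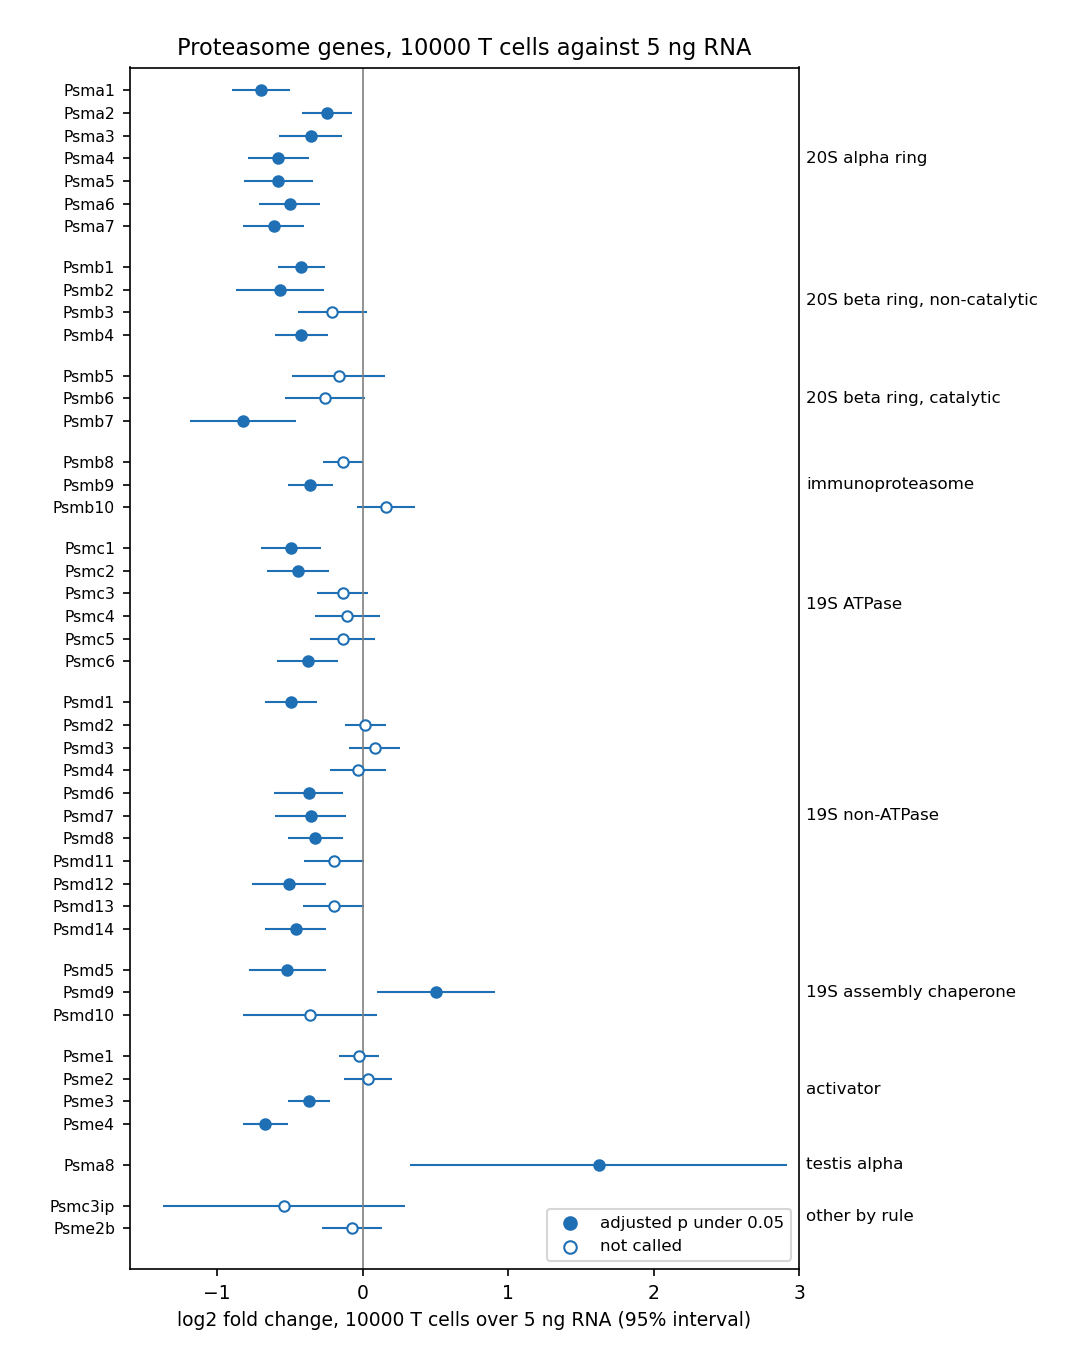
Log2 fold change of 44 proteasome genes in 10000 T cells over 5 ng RNA (horizontal axis) with 95% intervals, grouped by role; filled points had an adjusted p under 0.05. All 7 alpha ring genes lie left of 0, while Psme1 and Psme2 straddle it.

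The 2 genes called higher in 10000 T cells than in 5 ng RNA were Psma8 and Psmd9. Psma8 had 2.8, 4.4 and 2.4 CPM in 10000 T cells, against 1.2, 0.53 and 1.1 CPM in 5 ng RNA, a log2 fold change of 1.62 (SE 0.647, adjusted p = 0.028, edgeR). It kept its call under 3 of 11 alternatives and lost it when any 1 library of either group was left out. Psmd9, a cap chaperone whose exons overlap a gene on the other strand over 25.51% of their bases, had 29.0, 24.5 and 22.9 CPM in 10000 T cells, against 16.7, 15.7 and 17.4 CPM in 5 ng RNA. Its groups did not overlap (0.51, SE 0.204, adjusted p = 0.03, edgeR), but the call held under 4 of 11 alternatives and was lost without 10000-cell replicate 1, where the value was 0.36, without 10000-cell replicate 2, or without any 1 of the 5 ng libraries. Counting by strand is not stated, so reads of such overlapping genes cannot be told apart. At the lower ranks Psmd9 was below 0 and not called. Its log2 fold change was -0.33 for 1000, -0.30 for 500 and -0.14 for 100 T cells. The sister chaperone Psmd5 was lower in 10000 T cells at -0.52 (SE 0.132, adjusted p = 6.8e-04, edgeR).

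The catalytic subunits did not move as a block. Psmb7 had 21.5, 18.7 and 20.3 CPM in 10000 T cells, against 36.7, 32.7 and 29.7 CPM in 5 ng RNA. The groups did not overlap, and the log2 fold change of -0.82 (SE 0.182, adjusted p = 1.0e-04, edgeR) was the largest fall among the 44 genes; 11.84% of its exon bases overlap Nek6 on the other strand. Psmb5, with chymotrypsin-like activity, had 31.0, 40.0 and 35.9 CPM in 10000 T cells, against 40.6, 31.0 and 39.3 CPM in 5 ng RNA, so the groups overlapped (-0.16, 95% interval -0.48 to 0.15). Psmb6, with caspase-like activity, had 52.4, 40.8 and 57.3 CPM in 10000 T cells, against 50.4, 49.8 and 65.9 CPM in 5 ng RNA, also with overlap (-0.26, 95% interval -0.53 to 0.02). Psmb6 was called under 2 of 11 alternatives, without the filter on low counts (-0.36, adjusted p = 0.0226) and without 10000-cell replicate 3 (-0.40, adjusted p = 0.036), both by edgeR.

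Of the immunoproteasome genes, which replace Psmb5, Psmb6 and Psmb7 in that order, Psmb9 was lower in T cells. It had 129, 127 and 125 CPM in 10000 T cells, against 151, 152 and 148 CPM in 5 ng RNA. Its libraries agreed closely within each material and did not overlap between them (-0.36, SE 0.0782, adjusted p = 8.2e-05, edgeR). Psmb8 had 199, 183 and 218 CPM in 10000 T cells, against 216, 201 and 192 CPM in 5 ng RNA. The groups overlapped, and the value of -0.14 (95% interval -0.27 to 0.0041) was not called. It was called under 3 of 11 alternatives by edgeR, at -0.24 without the filter (adjusted p = 0.0033), -0.18 under the replicate block (adjusted p = 0.0329) and -0.23 without 10000-cell replicate 3 (adjusted p = 0.0099). Psmb10 had 98.4, 90.7 and 101 CPM in 10000 T cells, against 79.2, 87.2 and 73.8 CPM in 5 ng RNA. The T cell libraries were all higher, yet the value of 0.16 (95% interval -0.04 to 0.36) was not called; scaled by totals alone it passed at 0.28 (adjusted p = 0.014, edgeR).

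Per kilobase, the 3 immunoproteasome genes made up 67.5% ± 1.21 of the 6 catalytic genes in 10000 T cells and 64.9% ± 3.36 in 5 ng RNA (SD, n = 3 each). The ranges overlapped, at 66.4% to 68.8% in 10000 T cells and 61.6% to 68.3% in 5 ng RNA. Within the pairs, Psmb10 stood 9.63 ± 0.394 times above Psmb7 in 10000 T cells. In 5 ng RNA the ratio was 4.89 ± 0.515, with no overlap between libraries of the materials. The size of this ratio depends on the exon lengths, 1705 bases for Psmb10 and 3421 for Psmb7, which are the same in both materials. At lower inputs this ratio was less steady, at 6.41 ± 1.15 for 100, 5.70 ± 0.854 for 500 and 7.07 ± 2.57 for 1000 T cells (SD, n = 3 each). In diluted RNA it was 4.93 ± 4.08 at 0.1 ng (n = 2), 6.26 ± 2.04 at 0.5 ng and 4.84 ± 1.43 at 1 ng (n = 3 each), and the libraries of the materials overlapped at these 3 ranks. The ratio of Psmb8 to Psmb5 was 1.51 ± 0.259 in 10000 T cells and 1.48 ± 0.223 in 5 ng RNA, and that of Psmb9 to Psmb6 was 1.32 ± 0.245 in 10000 T cells and 1.42 ± 0.229 in 5 ng RNA. Both ranges overlapped between the materials at this input. The Psmb8 to Psmb5 ratio was 1.67 ± 0.145 in 500 T cells and 1.32 ± 0.0889 in 0.5 ng RNA. The Psmb9 to Psmb6 ratio was 1.14 ± 0.16 in 500 T cells and 1.64 ± 0.132 in 0.5 ng RNA (SD, n = 3 each). Here the libraries overlapped for neither ratio, with the first ratio higher and the second lower in T cells, and the ratios were not tested. At the 1000-cell and 100-cell ranks both ratios overlapped.

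**Figure D3:**
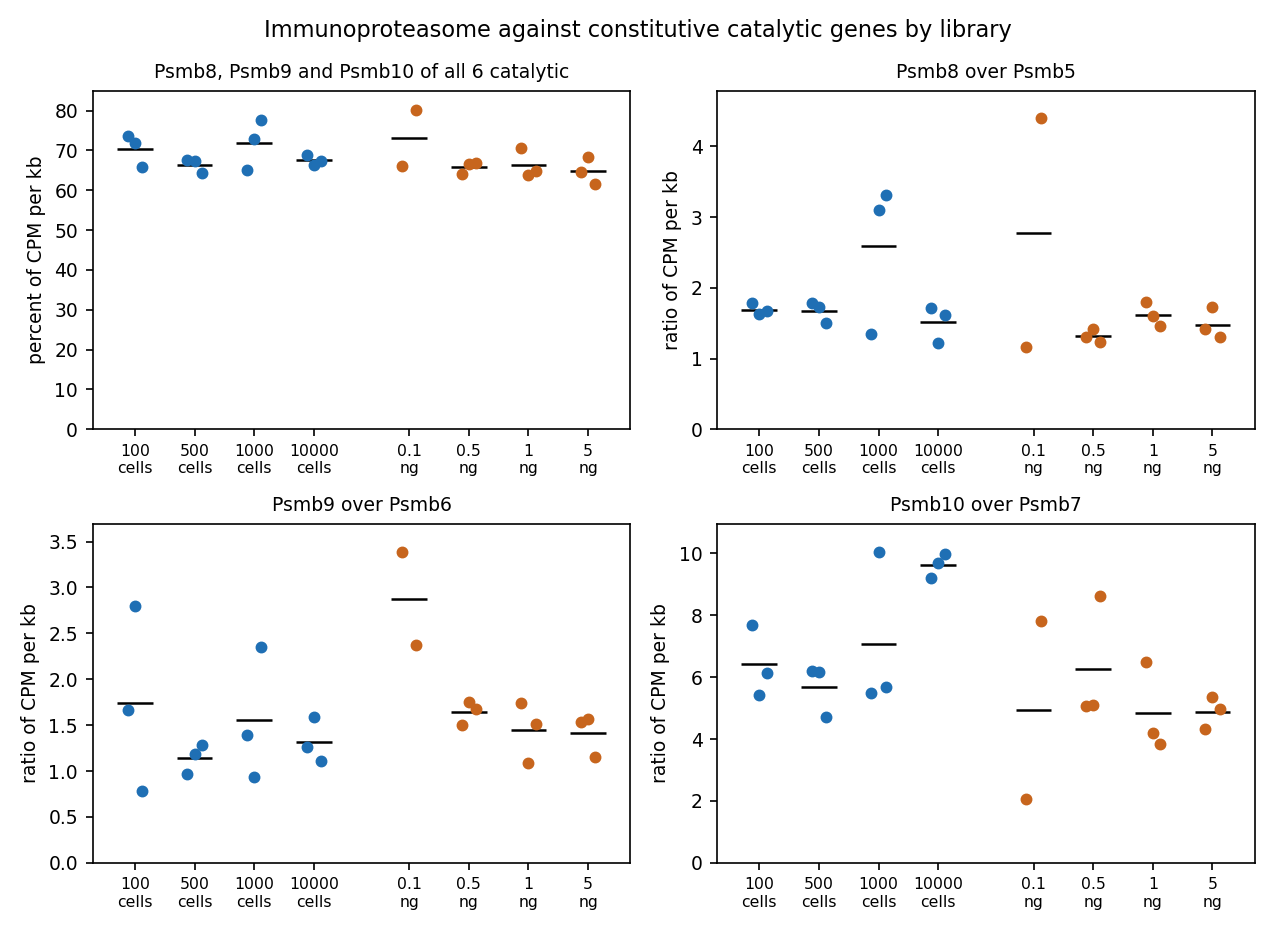
Share of the immunoproteasome genes among the 6 catalytic genes, and ratio of each immunoproteasome gene to the constitutive gene it replaces, from CPM per kb, by library for T cells (left, blue) and diluted RNA (right, orange); bars are group means. The Psmb10 to Psmb7 ratio is 9.2 to 9.97 in 10000 T cells and 4.33 to 5.35 in 5 ng RNA, while the shares overlap.

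Of the activators, Psme1 and Psme2 were not called and Psme3 and Psme4 were lower. Psme1 had 235, 228 and 204 CPM in 10000 T cells, against 196, 220 and 211 CPM in 5 ng RNA, with overlapping groups and a log2 fold change of -0.03 (95% interval -0.16 to 0.11). Psme2 had 137, 130.4 and 129.6 CPM in 10000 T cells, against 119, 120.5 and 118 CPM in 5 ng RNA, and its T cell libraries were all slightly higher (0.04, 95% interval -0.13 to 0.20, not called). Because Psme2 shares sequence with Psme2b, their sum was taken too; it was 215 ± 12.2 CPM in 10000 T cells and 200.2 ± 0.749 CPM in 5 ng RNA (SD, n = 3 each).

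Psme3 encodes PA28 gamma, a nuclear activator for degradation without ubiquitin. It had 154.5, 160.4 and 153 CPM in 10000 T cells, against 184, 190 and 185 CPM in 5 ng RNA. The groups were apart (-0.37, SE 0.0716, adjusted p = 1.4e-05, edgeR). Psme4 encodes PA200, a nuclear activator linked to the breakdown of acetylated histones. It had 120.2, 117 and 112 CPM in 10000 T cells, against 165, 171 and 176 CPM in 5 ng RNA. No T cell library came near an RNA library (-0.67, SE 0.0782, adjusted p = 6.1e-11, edgeR).

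Both genes were lower at the next 2 ranks as well. In 1000 T cells Psme4 had 107, 87.7 and 96.3 CPM, against 145, 160 and 182 CPM in 1 ng RNA (-0.75, SE 0.128, adjusted p = 4.1e-05, edgeR). In 500 T cells it had 117.5, 71.8 and 99.0 CPM, against 169, 182.5 and 174.5 CPM in 0.5 ng RNA (-0.88, SE 0.162, adjusted p = 1.7e-04, edgeR). The groups did not overlap at either rank. Psme3 had 127, 128 and 135 CPM in 1000 T cells, against 196.5, 169.5 and 215.5 CPM in 1 ng RNA (-0.58, SE 0.115, adjusted p = 2.2e-04, edgeR). It had 109.9, 136 and 100.3 CPM in 500 T cells, against 209, 194 and 183 CPM in 0.5 ng RNA (-0.77, SE 0.141, adjusted p = 1.7e-04, edgeR). The T cell libraries lay below all RNA libraries in each case, and both genes kept these calls under all 11 alternatives at each of the 3 ranks. Of the 43 proteasome genes tested at these 3 ranks, 2 (4.65%) were lower at all of them, against 14.82% of 11896 genes.

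At the smallest input Psme4 had 71.7, 77.9 and 144 CPM in 100 T cells, against 226 and 192 CPM in 0.1 ng RNA. Replicate 3, the library with B cell and neutrophil markers, was the high one of the T cells. The log2 fold change was -1.08 (SE 0.365, adjusted p = 0.25, edgeR), and without that library it was -1.46 (adjusted p = 0.0395, edgeR). Psme3 had 84.7, 94.1 and 100.2 CPM in 100 T cells, against 172 and 144 CPM in 0.1 ng RNA, with no overlap but no call (-0.74, adjusted p = 0.29, edgeR).

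**Figure D4:**
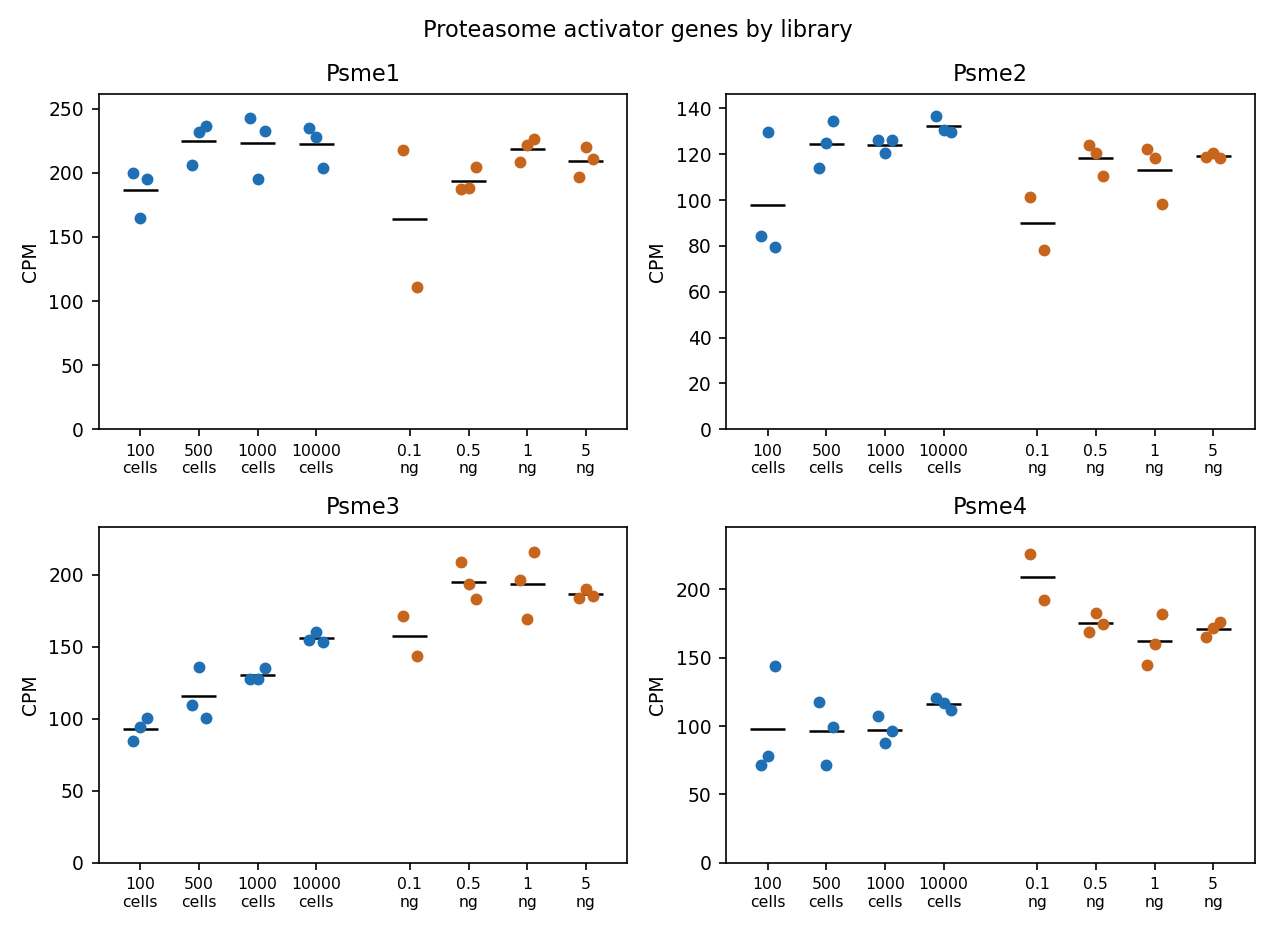
CPM of the activator genes Psme1 to Psme4 by library for 100 to 10000 T cells (left, blue) and 0.1 to 5 ng RNA (right, orange); bars are group means. Psme3 and Psme4 are lower in T cells at the upper 3 ranks, whereas Psme1 and Psme2 were called at no rank.

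Fewer proteasome genes were called at the lower ranks. In 1000 T cells against 1 ng RNA, 5 of 43 were lower and 1 was higher, where 20% of all genes were lower, 20.1% higher and 40% changed. The lower ones besides Psme3 and Psme4 were Psma7 (-0.51), the cap subunit Psmd13 (-0.50) and Psma2 (-0.37), and the higher one was Psmd4 (0.47, SE 0.138, adjusted p = 0.008, edgeR). Psma2 lost its call without 1000-cell replicate 2 or 3 or 1 ng replicate 1 or 2 (-0.30 to -0.40), and Psmd4 without 1000-cell replicate 3 or 1 ng replicate 2 (0.36 and 0.37). In 500 T cells against 0.5 ng RNA, 4 of 43 were lower and 1 was higher, where 18.1% of all genes were lower, 19% higher and 37.1% changed. Both counts of proteasome genes lay below these backgrounds. They were Psma1 (-0.55) and the cap subunit Psmd6 (-0.48) beside Psme3 and Psme4, and the cap ATPase Psmc3 was higher (0.54, SE 0.16, adjusted p = 0.0098, edgeR). Psma1 lost its call without 500-cell replicate 3 (-0.41) and Psmc3 without 500-cell replicate 2 (0.42). Psmd6 lost its call without 500-cell replicate 1 or 2 or any of the 0.5 ng libraries. Genes on the other strand overlap 8.25% of the exon bases of Psmc3 (Slc39a13) and 10.13% of those of Psmd13 (Sirt3).

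In 100 T cells against 0.1 ng RNA none of 42 proteasome genes was called by edgeR, where 0.0535% of all genes were; 3 (7.14%) had an unadjusted p under 0.05, against 15.7% of all genes, and DESeq2 called 0. The catalytic genes showed how wide the intervals were: Psmb7 was at 0.51 (95% interval -0.95 to 1.98), Psmb5 at 0.39 (-1.19 to 1.96) and Psmb10 at 1.09 (-0.02 to 2.21). At the 1000-cell and 500-cell ranks none of the 6 catalytic genes was called either, though 3 of them were under some of the 11 alternatives. In 1000 T cells against 1 ng RNA, Psmb5 stood at -0.62 (adjusted p = 0.13) and was called without the filter (-0.71), under the replicate block (-0.77) and without 1000-cell replicate 1 (-1.26, adjusted p = 0.0018), all by edgeR. Psmb8 stood at -0.21 there and was called without the filter (-0.30) and without 1 ng replicate 3 (-0.31). In 500 T cells against 0.5 ng RNA, Psmb10 stood at 0.33 and was called without 500-cell replicate 3 (0.49, adjusted p = 0.041, edgeR). Psme1 and Psme2 were called at no rank. Over all 4 ranks, 11 of 42 genes (26.2%) had a log2 fold change below 0 each time, against 26.1% of all genes, so that this share equals the background. Only 2 (4.76%, Psmb10 and Psme2) were above 0 each time, against 24.5% of all genes, and 29 changed sign. The 11 included Psma1, Psma2, Psma3, Psma5, Psmb9, Psmc2, Psmd1, Psmd7 and Psmd12 beside Psme3 and Psme4.

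Exon lengths and levels of the called genes overlapped widely with those of the others at the largest input. Among the 24 that were lower the median exon length was 3004.5 bases (1204 to 8382) and the median level 86.8 CPM, and among the 18 that were not called they were 2186 bases (837 to 6383) and 87.0 CPM. Across the 44 genes the Spearman correlation between log2 fold change and exon length was -0.071, against 0.213 across 14410 genes; genes share libraries and are not independent replicates, so no p is given.

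Lists of genes that work with the proteasome were compared in the same fits. Of 14 assembly factors and associated proteins, 6 were lower and 1 higher in 10000 T cells than in 5 ng RNA, which is 50% in either direction and near the 56% of all genes. Txnl1, a thioredoxin-like protein bound to the cap, was lower by a log2 fold change of -0.93 (SE 0.121, adjusted p = 1.4e-09, edgeR), Ecpas, an adaptor of the 26S particle, by -0.56 (SE 0.0741), Zfand5 by -0.54 (SE 0.0963) and the deubiquitinase Uchl5 by -0.44 (SE 0.172). Adrm1, the ubiquitin receptor that anchors Uchl5, was higher (0.29, SE 0.106, adjusted p = 0.018, edgeR). The core assembly chaperones Psmg1 to Psmg4 and Pomp were not called, with values of -0.05 to -0.48. Ecpas and Txnl1 were also lower at the 1000-cell rank (-0.85 and -0.48) and at the 500-cell rank (-0.65 and -0.59).

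Of 7 genes of transcriptional control, 3 were higher and 4 lower at the largest input, where 28.7% of all genes were higher and 27.3% lower. Nlrc5, the transactivator of MHC class I genes, averaged higher in T cells, with a log2 fold change of 1.03 (SE 0.0642, adjusted p = 8.1e-22, edgeR), and Ngly1 (0.28) and the interferon factor Irf1 (0.19) were higher too. Nfe2l1, the factor that raises proteasome genes when proteasome activity is short, was lower at -0.41 (SE 0.0921, adjusted p = 1.4e-04, edgeR), as were Ddi2, the protease that activates it (-0.36) and Nfe2l2 (-0.51). At 1000 cells Nlrc5 was at 0.67, Nfe2l1 at -0.75 and Ddi2 at -0.41, and at 500 cells they were at 0.75, -0.91 and -1.30, all called by edgeR.

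Of 13 ubiquitin and delivery genes, 4 were lower and 1 higher at the largest input, which is 38.5% in either direction and below the 56% of all genes. Those lower included the shuttle factors Ubqln1 (-0.72) and Rad23b (-0.46) and the unfoldase Vcp (-0.35), and the ubiquitin-activating enzyme Uba1 was higher (0.17, SE 0.0523, adjusted p = 0.0041, edgeR). Of 11 genes of MHC class I peptide loading, 5 were higher and 4 lower, which is 81.8% in either direction against 56% of all genes. The peptide transporter genes Tap2 (0.47) and Tap1 (0.13), the heavy chain H2-K1 (0.41), the loading factor Tapbpl (0.32) and the trimming peptidase Erap1 (0.30) were higher, and the chaperones Canx (-0.62), Pdia3 (-0.60) and Calr (-0.53) and the light chain B2m (-0.38) were lower. Psmb9 and Tap1 overlap on opposite strands over 5.79% of the exon bases of Psmb9, and they were called in opposite directions.

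The second comparison asked whether the proteasome genes held their level when fewer cells were used. The 3 smaller inputs share the 10000-cell libraries as their reference. In 100 against 10000 T cells none of 43 was called by edgeR, nor was any gene (0%); 6 (14%) had an unadjusted p under 0.05, against 12% of all genes, and DESeq2 called 1, Psme3. Psme3 had 84.7, 94.1 and 100.2 CPM in 100 T cells, against 154.5, 160.4 and 153 CPM in 10000 T cells. The groups lay far apart, yet the adjusted p was 0.15 (-0.75, SE 0.161, edgeR); without 100-cell replicate 3 the value was -0.83 and the adjusted p 0.032. In 500 against 10000 T cells 1 of 44 was called, where 2.46% of all genes were lower and 3.21% changed. This was Psmd2, with 128, 151 and 178 CPM in 500 T cells, against 211, 181 and 229 CPM in 10000 T cells. The groups did not overlap, but the call (-0.45, SE 0.126, adjusted p = 0.048, edgeR) held under 4 of 12 alternatives and was lost without 500-cell replicate 1 or 2 or any of the 10000-cell libraries; the part of the plasma cell markers of the 500-cell libraries was not tested. In 1000 against 10000 T cells 1 of 44 was called, where 1.23% of all genes were higher, 2.04% lower and 3.27% changed. Psmc6 had 111, 92.8 and 96.7 CPM in 1000 T cells, against 70.8, 67.0 and 77.3 CPM in 10000 T cells (0.50, SE 0.143, adjusted p = 0.045, edgeR), a call that held under 3 of 12 alternatives and was lost without 1000-cell replicate 1 or 3 or any of the 10000-cell libraries.

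Along the T cell series Psme3 was the 1 gene of 44 with a slope that passed, where 0.393% of all genes had a rising slope and 0.692% any slope. Its mean level was 93.0 CPM at 100 cells, 116 CPM at 500, 130.2 CPM at 1000 and 156 CPM at 10000, a slope of 0.37 on the log2 scale per 10-fold more cells (SE 0.0827, adjusted p = 0.039, edgeR). The means increased at every step, though libraries of 500 and 1000 cells overlapped. The slope ranged from 0.33 to 0.41 over 18 alternatives and passed in 6 of them, with the highest adjusted p at 0.14. It was not called without 100-cell replicate 1 or 2, 500-cell replicate 1, or any 1 of the 1000-cell or 10000-cell libraries. Psme4 gave 0.12 (SE 0.114) and was not called.

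The same question was asked of diluted RNA, where the 3 smaller inputs share the 5 ng libraries. In 0.1 against 5 ng, 3 of 43 genes were lower and 1 higher, where 6.55% of all genes were lower, 4.69% higher and 11.2% changed. Psma7 had 42.8 and 55.3 CPM in 0.1 ng RNA, against 128.5, 113 and 103 CPM in 5 ng RNA. Both 0.1 ng libraries lay far below all 5 ng libraries (-1.27, SE 0.195, adjusted p = 0.024, edgeR). Psma4 had 59.6 and 42.6 CPM in 0.1 ng RNA, against 91.8, 94.5 and 102 CPM in 5 ng RNA, again without overlap (-0.95, SE 0.196, adjusted p = 0.037, edgeR). Psmd6 was lower by a value of -0.80 (SE 0.181, adjusted p = 0.046) and Psmc6 higher by 0.54 (SE 0.123, adjusted p = 0.047), both by edgeR. None of the 4 calls was made without any 1 of the 5 ng libraries. Leaving out 0.1 ng replicate 1 or 2 leaves a lone library that is assumed to vary like the others, so calls of those fits are not counted. The 2 libraries of 0.1 ng differed much from each other: Psma2 had 112 and 43.2 CPM, Psma3 101 and 36.8 CPM and Psma6 34.6 and 101 CPM, with no common direction.

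In 0.5 against 5 ng none of 43 genes was called by edgeR, where 2.87% of all genes were higher, 2.21% lower and 5.09% changed; 8 (18.6%) had an unadjusted p under 0.05, against 18.7% of all genes, and DESeq2 called 2. In 1 against 5 ng none of 43 was called by edgeR, where 0.00793% of all genes were higher, 0.0159% lower and 0.0238% changed, with 3 (6.98%) at an unadjusted p under 0.05, against 10.4% of all genes, and none by DESeq2. For the immunoproteasome genes the intervals at 1 against 5 ng were narrow, at -0.10 to 0.22 for Psmb8, -0.18 to 0.16 for Psmb9 and -0.06 to 0.41 for Psmb10 on the log2 scale. Over the RNA series 1 of 43 genes rose with input and 1 fell, where 2.01% of all genes rose, 3.1% fell and 5.12% passed in either direction. Psma7 averaged 49.0 CPM at 0.1 ng, 103 CPM at 0.5 ng, 113 CPM at 1 ng and 115 CPM at 5 ng, a slope of 0.58 per 10-fold more RNA (SE 0.15, adjusted p = 0.036, edgeR). Most of the difference lay between 0.1 and 0.5 ng. Psmc6 averaged 129 CPM at 0.1 ng, 104 CPM at 0.5 ng, 96.6 CPM at 1 ng and 86.1 CPM at 5 ng, a slope of -0.35 (SE 0.0949, adjusted p = 0.044, edgeR). The slope of Psma7 passed in 11 of 16 alternatives and that of Psmc6 in 4 of 16, and Psma7 was not called without either 0.1 ng library (0.38 and 0.48), 1 ng replicate 3 or 5 ng replicate 1. Psmc6 kept its slope call without 0.5 ng replicate 2 and lost it without any 1 of the other libraries.

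**Figure D5:**
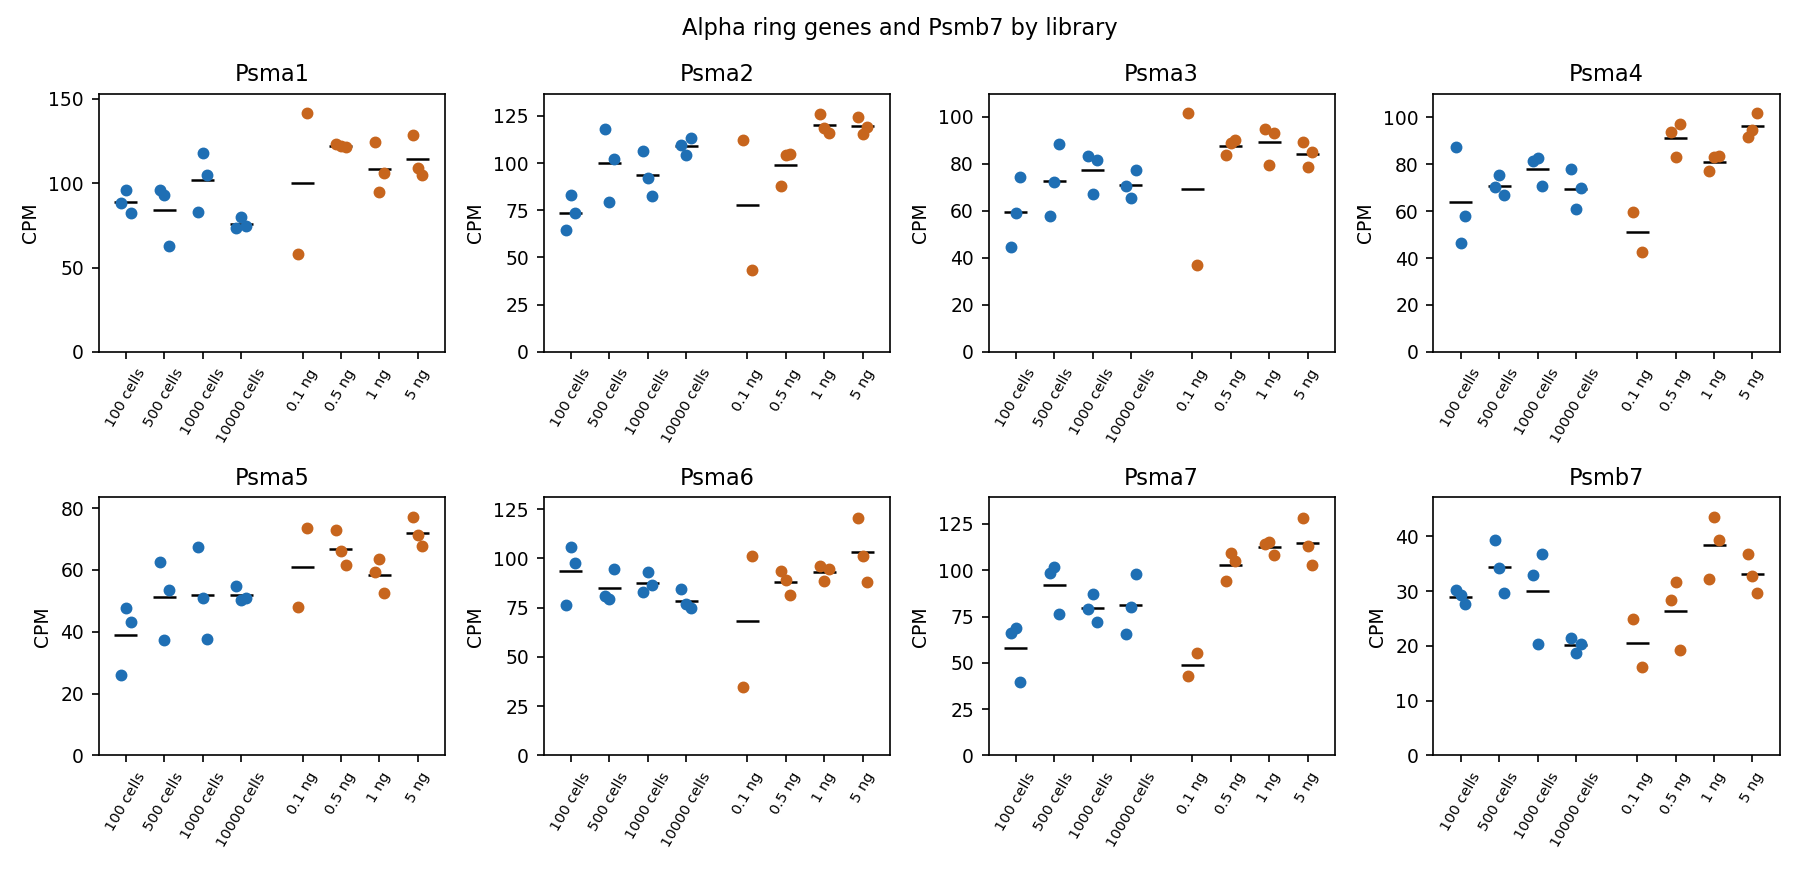
CPM of the 7 alpha ring genes and of Psmb7 by library for 100 to 10000 T cells (left, blue) and 0.1 to 5 ng RNA (right, orange); bars are group means. The 0.1 ng libraries stand apart from each other for most genes, and Psma7 is low in both of them.

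The spread between libraries was also set out by input, as a description with no test. The median coefficient of variation over the 42 genes at 10 CPM or more was 19.95% at 100 cells, 17.02% at 500, 10.89% at 1000 and 7.52% at 10000 (n = 3 libraries each). In diluted RNA it was 29.39% at 0.1 ng (n = 2), 7.95% at 0.5 ng, 9.81% at 1 ng and 6.37% at 5 ng (n = 3 each). Over all 7363 genes at that level the medians were 28.54%, 16.74%, 14.24% and 9.51% from 100 to 10000 cells. From 0.1 to 5 ng they were 26.56%, 12.71%, 10.51% and 6.74%. The coefficient was wider at 100 than at 10000 cells for 32 of the 42 genes (76.2%), against 89.6% of the 7363 genes at that level. Without 100-cell replicate 3, a setting chosen after seeing the data, the median at 100 cells was 14.22%, against 21.85% over all 7363 genes. The coefficient was then wider for 27 of the 42 (64.3%), against 76.3% of those genes. At 0.1 ng it was wider than at 5 ng for 35 of the 42 (83.3%), against 85.5% of those genes. Depth differed with input, from 1737067 counts in a 0.1 ng library to 7908638 in a 5 ng library, and was not separated from it.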

How the data were processed

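The 23 libraries were analysed from 1 deposited table of raw gene counts. Per the submitters' processing notes, reads were aligned with HISAT2 2.1.0 and counted with featureCounts on the mouse build mm8, and these counts were deposited by the authors without normalization; strand and pair settings are not given in the sources used here, and 57.93% to 70.69% of nonzero counts were even. Groups came from the sample labels. Counts were tested with edgeR 4.0.16 (TMM scaling, filterByExpr, quasi-likelihood test, Benjamini-Hochberg adjustment over all genes, threshold 0.05) in R 4.3.3, in 10 comparisons and 2 slopes on log10 input; intervals are 95% and come from the fit. The procedure was also run on simulated counts with a common dispersion for all genes. That setting is simpler than these data, and no outcome of it is used here. Alternatives were DESeq2 1.42.0, its size factors in edgeR, library totals alone, no filter, the replicate number as a block, all inputs of a material in 1 fit, and each library left out. CPM is a count over its column total, and CPM per kb divides by the union of exons in GENCODE (GRCm38), which is not the build of the counts; 99.57% of symbols had a length. Near copies were found with BLAST+ 2.17.0. The floor is 3 counts per library and covers counting error only. The genes and lists, the catalytic and PA28 genes named whether called or not, and the rule of naming called genes up to the 12 largest per direction were chosen with earlier results of these data known. Some genes of these lists are not reported here.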

Additional observations from a re-analysis of the deposited data

Results flagged for a closer look

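For 4 proteasome genes the change pointed in opposite directions in different comparisons, with every library of 1 group on the same side of every library of the other; the difference between the comparisons was not tested. Psmb7 was at a log2 fold change of 0.51 in 100 T cells against 0.1 ng RNA and at -0.82 in 10000 T cells against 5 ng RNA. Between these ranks it was at 0.37 in 500 T cells against 0.5 ng RNA and at -0.37 in 1000 T cells against 1 ng RNA. The groups overlapped at both of these ranks, and neither value was called. Within materials Psmb7 was at 0.51 in 100 against 10000 T cells and at -0.73 in 0.1 against 5 ng RNA. Psmc3 was at 0.11 in 100 against 10000 T cells and at -0.37 in 0.1 against 5 ng RNA. Psmd13 was at 0.78 in 100 T cells against 0.1 ng RNA and at -0.50 in 1000 T cells against 1 ng RNA. Psmd6 was at 0.79 in 100 T cells against 0.1 ng RNA and at -0.48 in 500 T cells against 0.5 ng RNA. Each pair includes a group of 100 cells or 0.1 ng, where the spread between libraries was widest. None of the values at those inputs was called. Separation of all libraries was common: in 100 T cells against 0.1 ng RNA, 16.4% of 13073 genes were separated as lower and 21.1% as higher. The share of all genes with opposite directions was not counted, so the 4 genes are not set apart from it.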

How the results depend on the processing

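In 10000 T cells against 5 ng RNA the count of called genes was 23 to 31 over the alternatives, beside 26, and 19 of the 26 calls held in every one. The other counts moved more, and the cause was not tested. Counts under alternatives, here and in the Results, DESeq2 included, cover proteasome genes alone. The share of all genes under the same setting is not given. Such counts therefore do not show whether the proteasome genes moved apart from the rest. In 1000 T cells against 1 ng RNA it was 6, with 11 without the filter and 4 to 8 with 1 library left out; in 500 T cells against 0.5 ng RNA it was 5, with 3 to 6 (3 without 500-cell replicate 2). In 100 T cells against 0.1 ng RNA it was 0, with 1 under the replicate block and 0 to 1 with 1 library left out. In 100 against 10000 T cells it was 0, with 1 by DESeq2, 2 with all inputs in 1 fit and 0 to 1 with 1 library left out. In 500 against 10000 T cells it was 1, with 3 by DESeq2, 2 without the filter, 2 under the replicate block, 0 under DESeq2 size factors, under library totals alone and with all inputs in 1 fit, and 0 to 1 with 1 library left out. In 1000 against 10000 T cells it was 1, with 3 by DESeq2, 0 under totals alone, without the filter, under the replicate block and with all inputs in 1 fit, and 0 to 3 with 1 library left out. In 0.1 against 5 ng RNA it was 4, with 2 without the filter, 2 under the replicate block and 7 with all inputs in 1 fit. None of those 4 calls was made without any 1 of the 5 ng libraries. Fits that leave 1 library of 0.1 ng are not counted here. In 0.5 against 5 ng RNA it was 0, with 2 by DESeq2, 1 without the filter and 0 to 1 with 1 library left out. For the T cell slope it was 1, with 0 under DESeq2 size factors, under the replicate block and without the 500-cell group, a setting chosen after seeing the data, and 0 to 1 with 1 library left out; for the RNA slope it was 2, with 5 by DESeq2, 0 under the replicate block and 0 to 2 with 1 library left out. In 0.1 against 5 ng RNA Psmb9, at 0.11, reversed to -0.37 without 0.1 ng replicate 1 and stood at 0.43 without replicate 2. Of 1687 values of single genes under alternatives, 1488 kept sign and call. Another 103 kept the sign and lost the call, and 66 changed sign without a call in either setting. The rest gained or reversed a call. The tally takes in fits that leave 1 library of 0.1 ng, the reversal of Psmb9 among them. Calls gained or reversed are therefore not read from it. Samples that share a replicate number did not deviate together (r of -0.0305 to 0.0277 over 44 pairs, 0 above 0.1), so the number was not taken as a pairing.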
